A study of Mus musculus with 60 samples.

Results

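The cholesterol and fatty acid synthesis genes were a list of 30 mouse genes, taken by symbol from both count tables of a study of the CD74-NRG1 fusion. All 30 were found in the fibroblast table of 46517 genes and in the tissue table of 54838 genes, and all 30 passed the filter on low counts in each fit. The sterol branch held 19 enzymes, of which all but Ggps1 lie on the way from acetyl-CoA through mevalonate and squalene to cholesterol, while Ggps1 makes geranylgeranyl diphosphate, a product off that path: Acat2, Hmgcs1, Mvk, Pmvk, Mvd, Idi1, Fdps, Ggps1, Fdft1, Sqle, Lss, Cyp51, Tm7sf2, Msmo1, Nsdhl, Hsd17b7, Ebp, Sc5d and Dhcr7. The fatty acid branch held 5 enzymes, Acly, Acaca, Fasn, Scd1 and Elovl6. The remaining 6 were regulators and a transporter: Srebf1, Srebf2, Scap, Insig1, Insig2 and Stard4.

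Both branches start from cytosolic acetyl-CoA, which Acly makes from citrate. SREBP transcription factors, encoded by Srebf1 and Srebf2, are held in the endoplasmic reticulum by the Insig proteins and carried to the Golgi by Scap when sterols are low, where they are cut to their active form. The Srebf2 product is known mainly for driving the sterol enzymes, and the main liver product of Srebf1 for driving the fatty acid enzymes in response to insulin. Liver is a major site of both kinds of synthesis in the mouse.

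The study put a CD74-NRG1 fusion behind a stop cassette at the Rosa26 locus (FSF.CD74-NRG1) and crossed it with a Rosa26 Flp deleter, which removes the cassette in nearly all tissues. Mouse embryonic fibroblasts (MEFs) of 9 embryos were sequenced at passage 3 and at passage 1. There were 3 homozygous (FSF.CD74-NRG1/FSF.CD74-NRG1), 3 heterozygous (FSF.CD74-NRG1/Flp) and 3 negative (Flp/Flp) embryos. Tissue came from 9 mice: liver tumours of 3 mice, sarcomas of 6 mice in 7 libraries, an intestine tumour of 1 mouse in 2 libraries, and normal liver (8), muscle (6), lung (7), spleen (6), brain (2) and kidney (1). All of these mice, and so all normal tissues, were labelled as carrying the fusion with Flp, and no tissue without the transgene was used here. The labels used here gave no age or sex. The 60 libraries were 3′ end (QuantSeq) libraries, so levels are given as CPM, the counts scaled to a common library total, unless said otherwise. Total counts ran from 3107529 to 5511781 in the 18 MEF libraries and from 4837440 to 10089572 in the 42 tissue libraries, where 3 counts are worth between 0.297 and 0.965 CPM.

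Nrg1, the mouse gene whose counts stand for the fusion here, went against some labels. The libraries labelled negative of embryo 1 had 147 CPM at passage 3 and 132 CPM at passage 1, and those labelled homozygous of embryo 3 had 1.28 CPM at passage 3 and 0.644 CPM at passage 1. All 4 tissues of mouse M00246 were low in Nrg1, with 0.675 CPM in liver against 27.6 to 83.3 CPM in the other livers and 43.3 to 69 CPM in the liver tumours. The passage labels of embryo 8 conflict in both of its libraries. Its passage 3 library has a title that says passage 1, while the heading of its counts names a passage later than 3. Its passage 1 library has a title that names a passage later than 1. Both were grouped by their group labels and descriptions. The liver tumour library of M00249 has a title without the word tumour. Hepatocyte markers summed to 22655, 50347 and 110216 CPM in the liver tumours and to 41568 to 80714 CPM in normal livers, against at most 1988 CPM in any other normal tissue or sarcoma. The muscle libraries also held keratinocyte and sebaceous markers, at 3252 to 10687 CPM summed, and the sarcomas 416 to 7106 CPM of the same markers.

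Between the MEF passages 2 of the 30 genes changed, and most sterol enzymes had small positive fold changes. The 2 genes passed an adjusted p of 0.05 (edgeR's quasi-likelihood test with Benjamini-Hochberg adjustment over all 12051 genes tested), both higher at passage 3, where 1.81% of all genes were called higher. None was called lower, against 1.01% of all genes. The pair was Hsd17b7, a sterol ketone reductase, and Scap, the SREBP escort. Hsd17b7 had 29.9, 34.9 and 46.1 CPM (lowest, median and highest of 9 embryos) at passage 3, against 17.8, 21.6 and 28.6 CPM at passage 1. The passages did not overlap for Hsd17b7, which was the single member without overlap, and its log2 fold change was 0.63 ± 0.09 (SE; adjusted p = 0.0041). The share of all genes without overlap between passages was not computed. Scap had 42.3, 47.6 and 57.7 CPM at passage 3 against 30.7, 40.3 and 44.4 CPM at passage 1, with overlapping ranges and a log2 fold change of 0.30 ± 0.07 (adjusted p = 0.025, edgeR). Without embryo 8, whose passage label is in doubt, Hsd17b7 stayed called (log2 fold change 0.65, adjusted p = 0.034, edgeR) and Scap did not (0.27, adjusted p = 0.11). Scap was also lost without embryo 1, 2, 3, 4 or 5, leaving 1 call, and 5 genes were called without embryo 10.

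The same embryo gave both passages, so each gene could also be read within embryos. Hmgcs1, the HMG-CoA synthase at the head of the mevalonate steps, had 222, 254 and 308 CPM at passage 3 against 171, 199 and 263 CPM at passage 1. It was higher at passage 3 in 9 of 9 embryos, as were Mvd, Cyp51, Hsd17b7 and Ebp of the sterol branch, Scap and Insig1 among the regulators, and Scd1 of the fatty acid branch. The share of all genes higher in 9 of 9 embryos was not computed. Fasn, the fatty acid synthase, had 113, 130 and 166 CPM at passage 3 against 129, 144 and 167 CPM at passage 1, and was higher at passage 3 in 3 of 9 embryos. With the embryo as a block, 13 of the 30 genes were called, all higher at passage 3, where 2.79% of the 11092 genes tested in that fit were called higher and 1.43% lower (edgeR). They were 9 of the 19 sterol enzymes, 3 of the 6 regulators and transport genes and 1 of the 5 fatty acid enzymes, Scd1. Cyp51, the lanosterol demethylase, had the smallest adjusted p in that fit (log2 fold change 0.40, adjusted p = 0.00098).

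Taken by branch, the log2 fold change of passage 3 over passage 1 was positive for 18 of 19 sterol enzymes (median 0.31), 5 of 6 regulators and transport genes (median 0.18) and 2 of 5 fatty acid enzymes (median -0.01), where the median of all genes was 0.00. Among members that missed the threshold without the block, Cyp51 had 0.39 ± 0.1 (adjusted p = 0.051), Srebf2 0.21 ± 0.06 (adjusted p = 0.052), the squalene synthase Fdft1 0.41 ± 0.11 (adjusted p = 0.061), Ebp 0.36 ± 0.1 (adjusted p = 0.073) and Fasn -0.14 ± 0.07 (adjusted p = 0.31, edgeR throughout). Of 8 proliferation markers, all had a negative fold change at passage 3, and Mcm2 and Top2a were called lower. Macrophage markers summed to 533 to 1230 CPM at passage 3 and to 47.3 to 1461 CPM at passage 1, with none of the 8 called. The passage 1 libraries of embryos 2, 3 and 10 stood apart, with 71.7, 47.3 and 54.7 CPM of macrophage markers against 891 to 1461 CPM in the other 6, and with 4259 to 5275 CPM of fibroblast markers against 7285 to 8222 CPM. Without these embryos 8 members were called higher at passage 3, where 1.68% of all genes were, and 0 lower, where 1.17% were (edgeR). The part of these markers in the results was not tested. Without embryos 1 and 3, whose Nrg1 went against their labels, no member was called by edgeR (15 at unadjusted p under 0.05, as were 10.4% of all genes; smallest adjusted p = 0.082) and 1 higher by DESeq2, where 0.435% of all genes were.

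**Figure D1:**
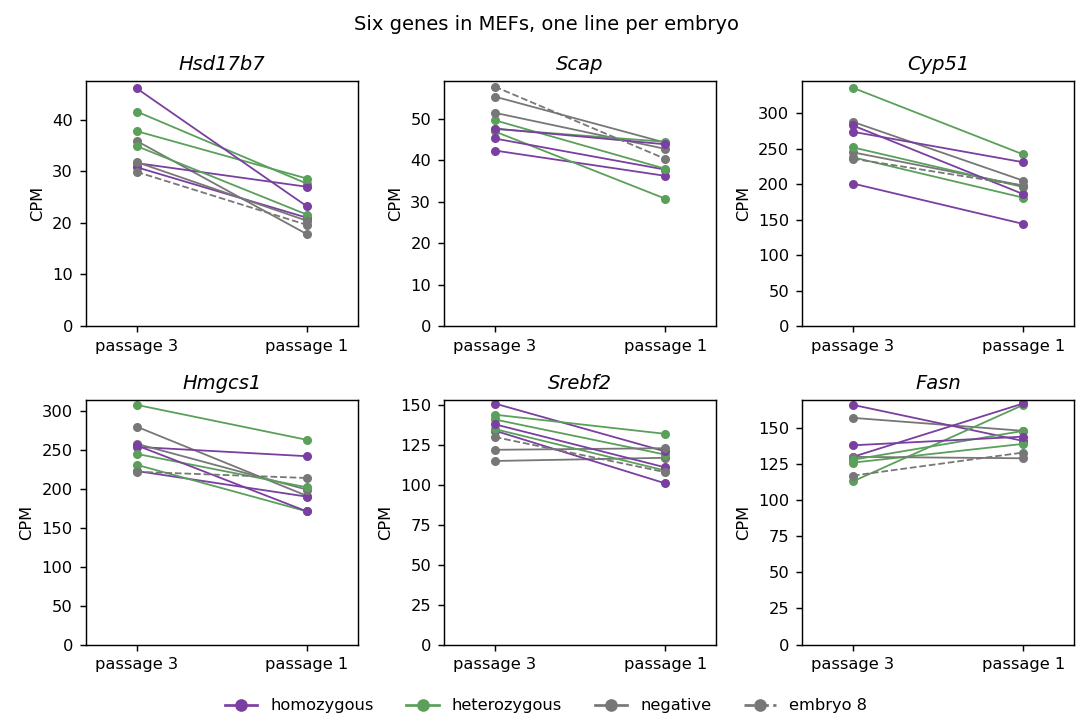
CPM (linear axis from 0) of Hsd17b7, Scap, Cyp51, Hmgcs1, Srebf2 and Fasn in MEFs of 9 embryos at passage 3 and passage 1. Each line joins the libraries of 1 embryo, colours give the genotype and the dashed line is embryo 8. Hsd17b7 lies at 29.9 to 46.1 CPM at passage 3 and at 17.8 to 28.6 CPM at passage 1, with no overlap, while Fasn lies at 113 to 166 and 129 to 167 CPM.

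The fusion's genotype left no called difference in these genes. Homozygous or heterozygous MEFs were set against the same negative MEFs at each passage, 3 embryos a group, so the comparisons share controls. No member and none of the 12051 genes passed the threshold in any of the 4 comparisons by edgeR (0% called higher and 0% lower). At an unadjusted p under 0.05 there were 2 members in homozygous and 2 in heterozygous MEFs at passage 1 (10.9% and 2.62% of all genes), and 1 and 3 at passage 3 (3.75% and 4.39% of all genes), while DESeq2 called 0 members in all 4. Hmgcs1 gave a log2 fold change of 0.01 ± 0.17 (adjusted p = 0.99, edgeR) in homozygous against negative MEFs at passage 1. Its sign changed with the embryo left out. The members past the unadjusted threshold were Mvk (-0.43) and Ggps1 (-0.40) in homozygous and Hsd17b7 (0.46) and Acaca (0.63) in heterozygous MEFs at passage 1, and Scap (-0.29) in homozygous and Idi1 (1.16), Dhcr7 (-0.95) and Insig1 (0.47) in heterozygous MEFs at passage 3. Fasn ranged from -0.14 to 0.17 over the 4 comparisons. No member and no other gene passed edgeR's test of a different passage change by genotype, with 0 members at unadjusted p under 0.05 for homozygous and 2 for heterozygous MEFs (4.27% and 3.04% of all genes). Nrg1 went against the labels of embryo 1 in the negative group and of embryo 3 in the homozygous group.

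In the liver tumours fatty acid genes were lower than in normal liver, while few sterol enzymes were called in either direction. Of the 19 sterol enzymes, only Hmgcs1 and Cyp51 were called higher and only Ebp lower, near the shares of all genes that follow. Of the 30 genes, 4 were called higher than in normal liver (Hmgcs1, Cyp51, Srebf2 and Insig2), where 6.98% of the 13256 genes tested were, and 6 lower (Ebp, Srebf1, Scap, Acly, Acaca and Fasn), where 3.64% were (edgeR, 3 tumours against 8 livers). The fold change was positive for 16 of 19 sterol enzymes (median log2 0.43), 2 of 6 regulators and transport genes (median -0.20) and 0 of 5 fatty acid enzymes (median -1.46), where the median of all genes was 0.09. Srebf1, Scap and Acaca stayed called whichever library was left out, and they were the 3 left without the tumour of M00248. The 4 higher calls were all lost without the tumour of M00236 or M00248 or the liver of M00238 or M00248, which left 8, 3, 6 and 5 calls in all. In bulk tissue, fewer cells of a type and less RNA per cell cannot be told apart.

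Among the sterol enzymes, Hmgcs1 had 939, 553 and 510 CPM in the tumours of M00236, M00248 and M00249, against 90, 181 and 520 CPM (lowest, median, highest) in normal livers. Those of M00236 and M00248 lay above all livers, and that of M00249 just below the highest liver, which was that of M00247. The log2 fold change was 1.5 ± 0.41 (adjusted p = 0.035, edgeR). Cyp51 had 443, 327 and 167 CPM in the same tumours, against 83.5, 102 and 205 CPM in livers, a log2 fold change of 1.22 ± 0.31 (adjusted p = 0.024). The tumour of M00249 lay within the livers' range. Ebp, the sterol isomerase, went the other way, with 150, 110 and 134 CPM in tumours against 146, 225 and 256 CPM in livers (log2 fold change -0.88 ± 0.22, adjusted p = 0.023, edgeR). The squalene epoxidase Sqle was not called (128, 184 and 78.7 CPM in tumours, against 11.8, 39.8 and 89.8 CPM in livers; log2 fold change 1.45 ± 0.5, adjusted p = 0.085), and the squalene synthase Fdft1 was not either (0.66, adjusted p = 0.074). The other 14 sterol enzymes, none called, ranged from -0.36 for the desaturase Sc5d to 1.11 for the isomerase Idi1.

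Among the regulators, Srebf2 and Insig2 were higher in tumours and Srebf1 and Scap lower. Srebf2 had 54.5, 60.8 and 35.2 CPM in tumours against 14.3, 17.4 and 32.2 CPM in livers, and Insig2 had 209, 179 and 167 CPM against 32.3, 72.9 and 108 CPM. Every tumour lay above every liver for both, with log2 fold changes of 1.12 ± 0.27 (adjusted p = 0.02) for Srebf2 and 1.14 ± 0.32 (adjusted p = 0.041) for Insig2 (edgeR). Srebf1 had 39.1, 29.3 and 36.8 CPM in tumours against 58.9, 116 and 218 CPM in livers, and Scap had 21.2, 28.2 and 37.7 CPM against 39.6, 51.7 and 60.9 CPM. Every tumour lay below every liver for both (Srebf1 log2 fold change -1.97 ± 0.40, adjusted p = 0.0091; Scap -1.02 ± 0.19, adjusted p = 0.0047). The share of all genes without overlap between tumours and livers was not computed. The ratio of Srebf1 to Srebf2 CPM was 0.483 to 1.05 in tumours and 1.83 to 11.8 in livers, also without overlap. Insig1, a partner of Scap, was not called (217, 178 and 55.7 CPM in tumours against 112, 134 and 258 CPM in livers; log2 fold change -0.16, adjusted p = 0.84), nor was the sterol carrier Stard4 (-0.25, adjusted p = 0.56).

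All 5 fatty acid enzymes had a negative fold change, and Fasn, Acaca and Acly were called lower. Fasn had 168, 126 and 90.1 CPM in tumours against 224, 375 and 632 CPM in livers. Acaca, the acetyl-CoA carboxylase that commits carbon to fatty acids, had 24.1, 31.6 and 24.1 CPM in tumours against 37, 58.1 and 85.7 CPM in livers. Neither gene overlapped between the groups, though the share of all genes without overlap was not computed. The log2 fold changes were -1.81 ± 0.41 for Fasn (adjusted p = 0.014) and -1.25 ± 0.26 for Acaca (adjusted p = 0.011, edgeR). Acly had 62.2, 106 and 55.8 CPM in tumours against 96, 163 and 299 CPM in livers (log2 fold change -1.40 ± 0.42, adjusted p = 0.048). Scd1, the stearoyl-CoA desaturase and the most abundant member in liver, had 3342, 1162 and 1385 CPM in tumours against 1470, 4875 and 7967 CPM in livers. It was not called (-1.46 ± 0.54, adjusted p = 0.11), and neither was the elongase Elovl6 (-1.86 ± 0.74, adjusted p = 0.13).

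**Figure D2:**
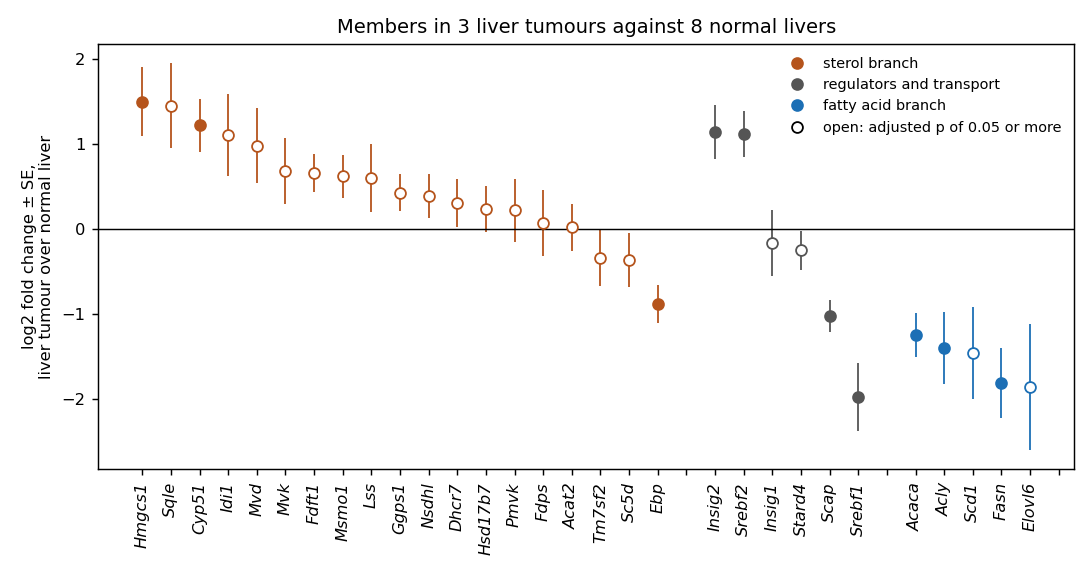
Log2 fold change of liver tumours (n = 3) over normal livers (n = 8) for the 30 genes, with the SE from edgeR as bars, by branch; filled points passed the adjusted p of 0.05. The fatty acid enzymes all lie below 0, from -1.25 to -1.86, while 16 of 19 sterol enzymes lie above it.

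The 3 tumours were not alike. By a rule of 2-fold from the livers' median and outside their range, the tumour of M00236 had 7 sterol enzymes above and 0 below, that of M00248 had 6 above and 1 below, and that of M00249 had 0 above and 2 below. The background in all genes was 16.4% above and 11.7% below for M00236, 16% and 9.42% for M00248, and 16.2% and 4.22% for M00249. Fatty acid enzymes fell below by the rule in 3, 3 and 5 of 5 cases. Idi1, the isopentenyl diphosphate isomerase, was above by the rule in the tumour of M00236 alone, at 384 CPM, while the other tumours had 74.2 and 75.1 CPM. Fdps, the farnesyl diphosphate synthase, had 343, 170 and 54.8 CPM in the tumours of M00236, M00248 and M00249 against 115 to 187 CPM in livers, so it was above by the rule in none (1.94 times the livers' median in M00236) and below in M00249. Lss, the lanosterol synthase, was above in that of M00248 alone, at 67 CPM against 20.9 and 11.1 CPM in the other tumours. Hepatocyte markers summed to 22655, 110216 and 50347 CPM in M00236, M00248 and M00249, adipocyte markers to 355, 81.4 and 66.7 CPM (20.7 to 44.4 CPM in livers, with Plin1 and Retn at 0 in the tumours), and proliferation markers to 219, 124 and 102 CPM (27.4 to 182 CPM in livers). Of 8 markers each, Cps1 was called lower among the hepatocyte ones and Fabp4 higher among the adipocyte ones. Also called higher were 1 proliferation marker and 3 fibroblast markers, and 0 macrophage markers were called. Of all genes, 6.98% were called higher and 3.64% lower. The part of these markers in the gene changes was not tested.

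For 2 of the mice the tumour could be set against the same animal's liver. Of 19 sterol enzymes, 17 were higher in the tumour of M00236 than in its liver and 15 in that of M00248, where 49.2% and 64.4% of all genes were. By 2-fold or more, 7 and 11 were higher (17.9% and 26.4% of all genes). The 5 fatty acid enzymes were lower in both tumours (50.7% and 35.4% of all genes), 3 of 5 by 2-fold or more in each (20.4% and 12.3%). Hmgcs1 was 6.18-fold higher in M00236 (939 CPM in tumour, 152 CPM in liver) and 3.39-fold higher in M00248 (553 and 163 CPM). Fasn fell to 168 CPM in the tumour of M00236, against 418 CPM in its liver, and to 126 CPM in that of M00248, against 422 CPM. With the mouse as a block, which leaves 1 residual degree of freedom, no member and no gene was called by edgeR (8 members at unadjusted p under 0.05, as were 7.1% of all genes). DESeq2 without the block called 4 members higher and 8 lower, where 8.24% and 6.93% of all genes were.

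**Figure D3:**
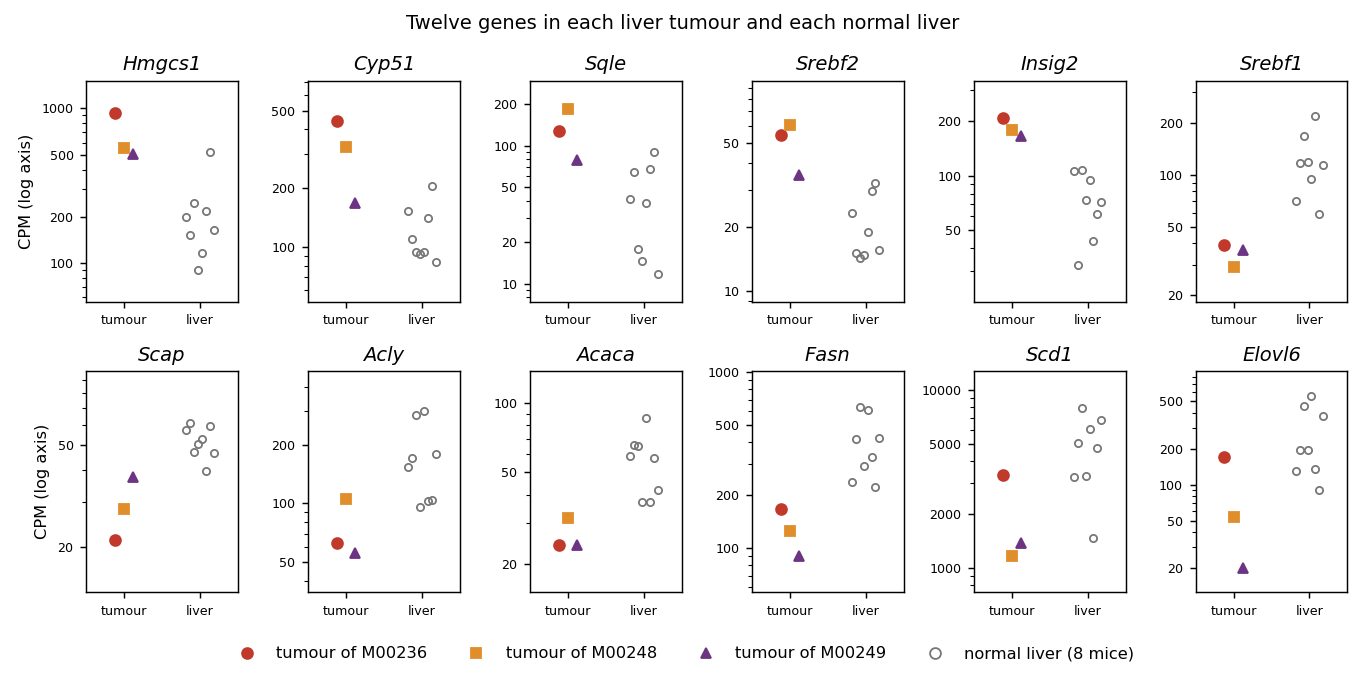
CPM of 12 of the genes in each liver tumour and each normal liver, on a log axis. Srebf2 lies at 35.2 to 60.8 CPM in tumours and 14.3 to 32.2 CPM in livers, and Fasn at 90.1 to 168 CPM in tumours and 224 to 632 CPM in livers.

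Other lipid genes moved in both directions. Of 20 other sterol genes for uptake, transport and efflux, 2 were called higher in liver tumours and 1 lower. Of all genes, 6.98% were called higher and 3.64% lower. Scarb1, the HDL receptor, was higher (log2 fold change 0.90, adjusted p = 0.018), and Cyp27a1, a sterol hydroxylase of bile acid synthesis, lower (-1.65, adjusted p = 0.038). Npc1l1, a cholesterol uptake protein, had 2.65, 6.24 and 1.27 CPM in tumours and no count in the 8 livers. It could thus pass the filter on low counts only through the tumours, so no weight is put on a call for it. Of 17 other fatty acid and triglyceride genes tested, 1 was higher and 4 lower: Scd2, a desaturase like Scd1, had 140, 172 and 111 CPM in tumours and 2.73 to 14 CPM in livers (4.09 ± 0.35, adjusted p = 4.8e-05), while Acss2 (-1.48, adjusted p = 0.032), Acacb (-2.21, adjusted p = 0.0082), Lpin1 (-3.15, adjusted p = 0.0039) and Dgat2 (-1.0, adjusted p = 0.028) were lower.

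Genes known to vary with fasting or the time of day in liver were read beside these. In this comparison 6.98% of all genes were called higher and 3.64% lower. Of 9 fasting-responsive genes, Fgf21 and Igfbp1 were higher in tumours and Pck1 lower (log2 fold changes 3.66, 4.78 and -2.67). Of 11 clock genes, 0 were higher and 2 lower, Per2 (-1.27, adjusted p = 0.028) and Per3 (-1.83, adjusted p = 0.0025, edgeR). The tumour of M00249, which had no liver of its own here, stood apart from the other tumours. Its Dbp was 0.886 CPM (47.7 and 56.6 CPM in the other tumours, 29.7 to 56 CPM in livers). Its Nr1d2 was 20 CPM (72.5 and 57.3 CPM, livers 52.6 to 75.8 CPM). Its Arntl was 9.37 CPM (1.44 and 1.68 CPM, livers 1.01 to 1.99 CPM), while Nr1d1 and Bhlhe41 lay within the livers' range. Time of feeding and of sampling was not given in the labels used here, and the part of either in the result was not tested.

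The promoters of these genes were searched for the sterol element, which SREBPs bind, and for motifs of NF-Y and Sp1, factors known to act beside SREBPs on such promoters. RefSeq windows (GRCm38.p6; 250 bases before the start to 50 after it) were matched by symbol for 25 of the 30 genes, after the windows of 1 chromosome were left out. The NF-Y motif CCAAT, on either strand, stood in 15 of 16 sterol enzymes with a window (93.8%), 4 of 5 regulators and transport genes (80%) and 2 of 4 fatty acid enzymes (50%). In all 27025 genes with a window kept it stood in 41.1%, and in the genes tested in tissues in 41.9%. The Sp1 motif GGGCGG stood in 87.5%, 100% and 25% of the 3 groups and in 60.6% of the genes tested. The sterol element TCACNCCAC stood in 1 of 25 (4%), Hmgcs1, against 1.44% of all genes, and both strands were searched for each motif.
These stretches show where the motif lies, in capitals, in Hmgcs1 (its sterol element, chr13:119690204-119690233, plus strand), then CCAAT in Idi1, a sterol enzyme high in the tumour of M00236 (chr13:8885580-8885609, plus strand), in Cyp51, which rose (chr5:4104709-4104738, minus strand), in the 2 regulators that rose (Srebf2, chr15:82147122-82147151, plus strand; Insig2, chr1:121332601-121332630, minus strand) and in Fasn, which fell (chr11:120824589-120824618, minus strand). ATTGG is CCAAT on the opposite strand.
Hmgcs1: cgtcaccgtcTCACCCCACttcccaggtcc
Idi1: gtccaaggtgccATTGGctggcgaccgaca
Cyp51: cgctgtccgccaCCAATctggtcctgagat
Srebf2: cttcgcgcgccgATTGGctaatgcaagcct
Insig2: tcaccttccacaCCAATctatattaaaatg
Fasn: cctcggtgtccaATTGGtttcgatgtggag
A match says only that these letters are in this window.

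The sarcomas had less of nearly all synthesis genes than liver and a mixed pattern against muscle. These comparisons use CPM scaled by TMM factors, since the libraries' factors differed by tissue (0.554 to 0.731 in liver, 0.685 to 0.842 in muscle and 1.16 to 1.68 in sarcoma). The sarcoma and normal tissue comparisons share their livers and muscles. Against normal liver, 29 of the 30 genes were called lower in sarcoma, where 27.2% of the 20832 genes tested were, and 1 higher, where 37.4% were (edgeR, 6 mice against 8). The exception was Ggps1, the geranylgeranyl diphosphate synthase, with 35.4, 45.1 and 59.2 scaled CPM in sarcoma against 10.1, 16.2 and 20.8 in liver (log2 fold change 1.48 ± 0.14, adjusted p = 5.7e-11). The lowest against liver were Sc5d (-5.46), Insig1 (-5.21), Scd1 (-5.03) and Fdps (-4.72). Hmgcs1 had 42.3, 54.3 and 78 scaled CPM in sarcoma against 163, 290 and 712 in liver, and Fasn had 47.4, 70.9 and 92.6 against 306, 572 and 1015. With library totals alone, 16 of 19 sterol enzymes, 5 of 6 regulators and transport genes and 5 of 5 fatty acid enzymes were called lower. In that setting 1 sterol enzyme and 1 regulator were called higher, and the share of all genes called is not given here. Without TMM factors, Srebf2 changed sign to 0.62 (adjusted p = 0.0096), where the median of all genes was 1.52; with them it was -0.60 ± 0.20 (adjusted p = 0.01).

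Against normal muscle, 5 genes were called higher in sarcoma (26.2% of all genes were) and 21 lower (24.3% were; edgeR, 6 mice against 6). The 5 were Ggps1, Srebf1 and the fatty acid enzymes Acly, Fasn and Scd1. Scd1 had 110, 199 and 455 scaled CPM in sarcoma against 24.2, 42.1 and 63.2 in muscle, without overlap (2.5 ± 0.41, adjusted p = 4.3e-06). Srebf1 had 17.9, 41.3 and 65.1 in sarcoma against 9.01, 13.7 and 15.8 in muscle, likewise without overlap (1.78 ± 0.36, adjusted p = 0.0001). The share of all genes without overlap between sarcoma and muscle was not computed. Fasn had 47.4, 70.9 and 92.6 against 28.2, 37.8 and 52.4, with overlap (0.84 ± 0.32, adjusted p = 0.03). Of 19 sterol enzymes, 16 were called lower in sarcoma with TMM factors and 2 with library totals alone, led by Fdft1 (7.68, 9.33 and 17.6 scaled CPM in sarcoma against 63.3, 69.2 and 85 in muscle; -2.74 ± 0.27, adjusted p = 2.7e-10) and Fdps (-2.23 ± 0.26, adjusted p = 7.9e-09). The sterol median was -0.92, the regulators' -0.76 and the fatty acid median 0.73, where that of all genes was 0.12. With library totals alone, 9 genes were called higher, where 54.2% of all genes were, and 2 lower (Fdft1 -1.73 and Fdps -1.22), where 11.2% were. The median of all genes was then 1.09, and all 5 fatty acid enzymes were among the 9. Adipocyte markers summed to 29.2 to 515 CPM in sarcoma and to 85 to 157 CPM in muscle. Both groups also held the keratinocyte and sebaceous markers given above, at higher sums. The part of any of these markers in the result was not tested.

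Of the other fatty acid and triglyceride genes, 3 were called higher and 9 lower of 17 in sarcoma against muscle, with Acacb at -3.78 and Mlxipl at -4.53. Of all genes, 26.2% were called higher and 24.3% lower. Of 19 other sterol genes tested, 7 were higher and 3 lower, with Soat1 at 2.47, Apoe at 1.87 and Abca1 at 1.67 (edgeR).

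Normal liver stood above muscle, lung and spleen in nearly every gene, and above brain in most. It had 27 called higher and 2 lower against muscle (24% and 30.8% of all genes), 28 and 1 against lung (24.2% and 37.1%), 28 and 2 against spleen (25.8% and 35.8%) and 25 and 1 against brain (22% and 29.9%, 2 brain libraries). With library totals alone it had 26 higher and 2 lower against muscle (19.1% and 36.6% of all genes), 25 and 2 against lung (11.1% and 64.1%), 27 and 2 against spleen (16% and 53.1%) and 19 and 2 against brain (12.5% and 44.7%), where 10 of the 19 sterol enzymes were called higher, 8 were not called and 1, Ggps1, was lower. Ggps1 was lower in liver in all 4 comparisons, from -0.97 against muscle to -2.30 against brain, and also with library totals alone. Srebf2 was lower in liver than in muscle (-0.49) and spleen (-0.56). The largest liver excess over muscle was that of Scd1 (log2 fold change 7.52 ± 0.51), with 2335, 6910 and 12787 scaled CPM in liver against 24.2, 42.1 and 63.2 in muscle. The muscle libraries held keratinocyte and sebaceous markers, whose part in the muscle values was not tested. Among the normal tissues tested, brain was nearest to liver for Hmgcs1, with 163, 290 and 712 scaled CPM in liver against 188 and 210 in brain. The log2 fold change was 0.71 ± 0.36 (adjusted p = 0.1, edgeR), and -0.09 with library totals alone. In scaled CPM, and without the kidney, the order of Hmgcs1 medians was liver, brain, muscle, lung, sarcoma and spleen. Muscle and lung did not overlap, nor did sarcoma and spleen, while the other neighbours did. The share of all genes without overlap between these groups was not computed. For Fasn the order in scaled CPM was liver, lung, brain, sarcoma, muscle and spleen, and the ranges of all neighbours overlapped.

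**Figure D4:**
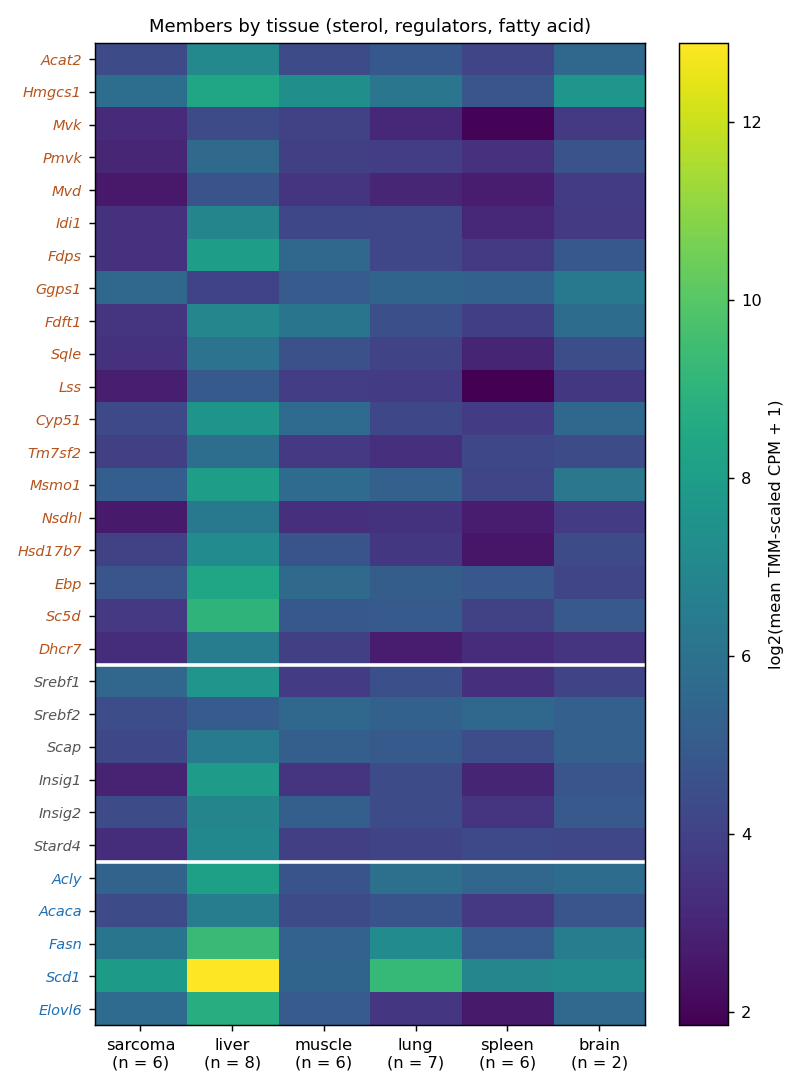
Heat map of the mean TMM-scaled CPM of the 30 genes (down the page, by branch) in sarcoma and 5 normal tissues, coloured by log2(mean + 1). Liver is the brightest column for nearly all genes, with a mean of 7606 for Scd1, while Ggps1 is darker in liver (mean 16) than in sarcoma (mean 44.9).

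The sum of sterol CPM over the sum of fatty acid CPM gives the balance of the branches within a library and does not depend on scaling. In the liver tumours the ratio was 1.02, 2.01 and 1.14, against 0.192 to 1.01 (median 0.322) in normal livers, a log2 difference of 1.94 (pooled SD 0.76). The tumours lay above every liver, the highest of which, 1.01, was that of M00246, the mouse low in Nrg1. Sterol sums were 3852, 2970 and 1797 CPM in the tumours of M00236, M00248 and M00249 and 1347 to 2381 CPM in livers, and fatty acid sums 3767, 1480 and 1575 CPM against 2076 to 9403 CPM. Scd1 held 78.5 to 88.7% of the fatty acid sum in tumours and 70.8 to 90.8% in livers, and the difference was 2.08 without it.

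Across tissues the ratio ranged from 0.192 in a liver to 5.06 in a muscle. Sarcomas had 0.468 to 1.06 by mouse, against 3.3 to 5.06 in muscle, a log2 difference of -2.40 without overlap. Against liver the sarcomas overlapped (1.21), and the difference changed sign to -0.29 without Scd1. Passage 3 MEFs had 3.22 to 4.98 and passage 1 MEFs 2.97 to 3.74, a difference of 0.29 with overlap. The intestine tumour's 2 libraries had 2.02 and 2.68, with 53.1 and 54.1 CPM of Hmgcs1 and 59.1 and 46.1 CPM of Fasn, and the kidney had 1.94, with 399 CPM of Hmgcs1 and 80.5 CPM of Fasn; these groups have 1 mouse each and no test.

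**Figure D5:**
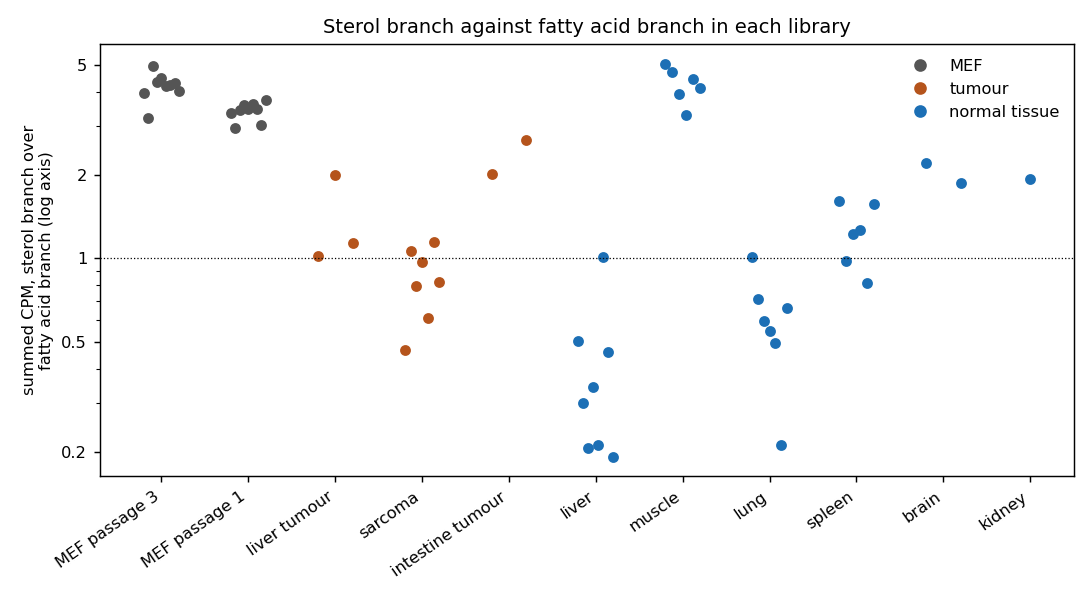
Ratio of sterol to fatty acid summed CPM in each library by group, on a log axis. The liver tumours lie at 1.02 to 2.01 above the normal livers at 0.192 to 1.01, and the 7 sarcoma libraries at 0.468 to 1.15, below muscle at 3.3 to 5.06.

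Within a group, Hmgcs1 and Fasn were set against each other across animals in 7 groups (log2(CPM + 1), two-sided exact permutation tests). In muscle r was 0.82 (exact permutation p = 0.056; Spearman's rho 0.77, p = 0.1; n = 6 mice, r 0.82 without the 2 farthest), in passage 1 MEFs 0.66 (p = 0.063; rho 0.45, p = 0.23; -0.31 without the 2 farthest) and in liver -0.36 (p = 0.39; rho -0.19, p = 0.66). The other 4 ranged from -0.20 to 0.74, the highest of which was spleen (-0.02 without the 2 farthest animals, and -0.11 to -0.01 in the other 3). No adjusted p over the 7 groups passed the threshold, with 0.22 to 0.63 for r and 0.42 to 0.95 for rho (exact permutation tests).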

How the data were processed

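RNA of 18 MEF and 42 tissue libraries was sequenced as 3′ end QuantSeq libraries on an Illumina instrument, per the labels' protocols; tissue RNA came from cryostat sections of frozen tissue. The authors deposited expected counts per gene, of which 6.6% (MEFs) and 8.35% (tissues) were fractional. Aligner, counter and genome build: not given in the sources used here. Values were rounded to whole numbers, which moved the totals by 0.0007% and 0.00054%. Values that are not whole occurred in 9 members (MEFs) and 15 (tissues), so these genes may share reads with near-identical copies and are uncertain to that extent. All columns mapped to samples (0 unmapped). The design had assumed whole counts, and the same test was kept.

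CPM was computed per library total. Tests used edgeR 4.0.16 (R 4.3.3, limma 3.58.1): filterByExpr at a minimum count of 10, TMM factors, quasi-likelihood fit, Benjamini-Hochberg adjustment over all genes tested with a threshold of 0.05, and SE from the log2 fold change and F. The MEF fit held all 18 libraries, the liver fit liver tumours and livers, and the tissue fit sarcoma and normal tissues, with the 2 sarcoma libraries of M00245 as 1 mouse. DESeq2 1.42.0, other scalings, filters and left-out libraries were alternatives. Tested on simulated data, all 3 designs recovered most planted changes. The planted changes were larger than the called changes of members between MEF passages, and no embryo or mouse effect was simulated. Recovery of small changes was thus not tested. Each group was set against the other by label; embryos and mice were taken as separate samples, and pairing comes from the same embryo or mouse in the labels. Same-embryo libraries correlated in their deviations at 0.05 to 0.34, liver tumour and liver of 1 mouse at -0.15 and -0.14, and other tissue pairs at -0.04 to 0.30.

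The members and gene lists were chosen with earlier results of these data known. Hmgcs1, Fasn and up to 4 sterol, 2 regulator and 3 fatty acid members with the smallest p per comparison were named by rule, and others by counts, ranges or singly after their values were seen. Counting error is the only error in floors. Where no source says that samples came from separate cultures, p-values cover the spread between samples.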

Additional observations from a re-analysis of the deposited data

Results flagged for a closer look

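Of 210 groups of 4 to 10 animals and genes tested for a value far from the rest, 25 had one by Dixon's 95% criterion, where chance gives about 1 in 20. The liver of M00247 was high in Hmgcs1 (520 CPM), Mvk (32.2 CPM) and Nsdhl (87.3 CPM); its macrophage markers summed to 891 CPM and its proliferation markers to 182 CPM, the most of the 8 livers. The lung of M00238 was high in Idi1 (56.9 CPM), Fdft1 (75.1 CPM), Lss (51.5 CPM), Srebf1 (70.4 CPM) and Insig2 (51.3 CPM) and low in Stard4 (7.57 CPM), with macrophage markers at 9439 CPM, the most of the 7 lungs. The lung of M00248 was high in Acaca (77.1 CPM), Fasn (437 CPM), Scd1 (1941 CPM) and Elovl6 (46.3 CPM), with adipocyte markers at 877 CPM, the most of the 7 lungs. The part of these markers in the values was not tested.

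In MEFs, embryo 3 was high in Idi1 (45.4 CPM) and embryo 10 low in Stard4 (16.7 CPM) at passage 1, where their macrophage markers summed to 47.3 and 54.7 CPM and their fibroblast markers to 4899 and 4259 CPM, against 891 to 1461 and 7285 to 8222 CPM in the embryos other than 2, 3 and 10. The part of these markers was not tested. Embryo 2 was high in Pmvk (53.1 CPM), Mvd (89.1 CPM) and Msmo1 (172 CPM) at passage 3. Among the sarcomas, M00237 was high in Idi1 (33.6 CPM), M00235 in Tm7sf2 (33.9 CPM) and M00245 in Insig1 (15.2 CPM). In muscle, M00237 was high in Fdft1 (71.5 CPM) and M00245 low in Scap (18.5 CPM). In spleen, M00246 was high in Acat2 (24.9 CPM) and M00245 low in Sqle (3.41 CPM).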

How the results depend on the processing

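Beside leave-one-out, single-gene values kept their direction and their side of the threshold in 2099 pairs of result and setting. They lost the threshold in 53 pairs, gained it in 24 and reversed in 23. With 1 embryo or library left out, these counts were 2729 kept, 91 lost, 5 gained and 9 reversed. For passage 3 against passage 1 (2 genes called), DESeq2 called 7, no low-count filter 8, a mean of at least 5 CPM 4, library totals alone 4, the embryo as a replicate block 13, leaving out embryos 1 and 3 called 0, leaving out embryos 2, 3 and 10, whose passage 1 libraries were low in macrophage markers, called 8, and leaving out 1 embryo called 1 to 5. For liver tumour against liver (10 called), the mouse as a replicate block called 0, and leaving out 1 library called 3 to 11. For sarcoma against muscle (26 called), library totals alone called 11, with the sign reversed for Scap (0.05), Ebp (0.04), Pmvk (0.03), Dhcr7 (0.29), Hsd17b7 (0.23), Insig2 (0.17), Stard4 (0.30), Mvk (0.10), Nsdhl (0.25), Insig1 (0.29), Msmo1 (0.39) and Idi1 (0.10). Library totals alone also reversed Srebf2 in sarcoma against liver (0.62), Hmgcs1 in liver against brain (-0.09) and Hmgcs1 in homozygous against negative MEFs at passage 1 (0.00), which was -0.01 with no filter and -0.20 without embryos 1 and 3. Without embryos 2, 3 and 10, Hmgcs1 was -0.27 and 0.00 in homozygous MEFs at passages 1 and 3 and -0.10 in heterozygous MEFs at both, Tm7sf2 0.26 in homozygous MEFs at passage 3 and Scd1 -0.11 in heterozygous MEFs at passage 1. With 1 embryo left out, Hmgcs1 ran from -0.16 to 0.13 and from -0.14 to 0.01 in homozygous MEFs at passages 1 and 3, and from -0.09 to 0.25 and from -0.10 to 0.13 in heterozygous MEFs; Hsd17b7 (-0.06 to 0.26) and Fasn (-0.01 to 0.20) in homozygous MEFs at passage 3 and Scd1 (-0.11 to 0.32) in heterozygous MEFs at passage 1 also crossed 0. By the mean of log2(CPM + 1) over members, the log2 branch difference was 0.35 for sarcoma minus liver (1.21 by sums), -1.80 for sarcoma minus muscle, -2.15 for liver minus muscle and -1.19 for liver minus brain. Without Scd1 it was -0.29 for sarcoma minus liver, -1.69 for sarcoma minus muscle, -1.40 for liver minus muscle, 0.20 for liver minus lung, -0.32 for liver minus spleen and -0.61 for liver minus brain, and it ran from 1.65 to 2.17 for liver tumour minus liver with 1 library left out. The causes were not tested. Other replicate blocks called 30 (sarcoma, liver), 22 (sarcoma, muscle), 29 (liver, muscle), 29 (lung), 30 (spleen) and 25 (brain), and depth limits low genes to 0.297 to 0.965 CPM per 3 counts.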
